A study of Mus musculus with 32 samples.

Results

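RNA levels were compared at 48 h of withdrawal between E14 mouse embryonic stem cells that had been kept in 2iL and the same cells kept in 2i. The comparison rests on 4 of the 32 libraries of the series, 2 of 2iL 48 h and 2 of 2i 48 h, and follows the sample labels alone. The 2iL 48 h cells had grown in N2B27 medium with the cytokine LIF, 3 uM CHIR99021, which blocks GSK3, and 1 uM PD0325901, which blocks MEK. The 2i 48 h cells had grown in N2B27 with both inhibitors and without LIF. Both were plated as single cells on 0.2% gelatin, changed a day later to N2B27 alone and collected 48 h after that change, so that at collection both groups had the same medium and differed in what had been taken away. E14 is a single cell line, and the labels do not state whether the replicates are separate cultures. The p-values here therefore speak to the spread between replicates, which may be technical. That spread was estimated over all 16 groups of the series and not from the 4 libraries alone. The same 2 media at 0 h, 24 h and 72 h, with 4 libraries at each hour, serve here to place the difference at 48 h in time.

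Naive pluripotency is the state of the epiblast before implantation, and cultured stem cells are held in it by inhibition of MEK and GSK3. LIF acts through its receptor and the kinase JAK on the transcription factor STAT3, which feeds the naive network through Klf4 and Tfcp2l1. When these signals are removed the naive factors are lost, a formative state follows in which the enzymes that set DNA methylation and factors such as Otx2 and Pou3f1 are transcribed, and in serum-free N2B27 many cells then take a neural path.

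The 2iL 48 h libraries held 3438514 and 2569834 counts over genes, and the 2i 48 h libraries 1402548 and 2204675. Levels are given in CPM, the counts scaled to a common library size with TMM factors, from libraries that read the 3' end of each transcript. The floor used for a count of 0 is 3 counts. Markers of the labelled cell type were present in all 4 libraries: Sall4 was at 288 and 258 CPM in 2iL 48 h and 245 and 258 CPM in 2i 48 h, and Lin28a at 488 and 384 CPM against 430 and 454 CPM. Pou5f1, the central pluripotency factor, was at 148 and 84.2 CPM in 2iL 48 h and 52.0 and 68.5 CPM in 2i 48 h, a difference that did not pass the test (edgeR adjusted p = 0.054). The other markers chosen for this cell type, Sox2 and Zfp42, were higher in 2iL 48 h. The log2 fold change of Sox2 was 0.91. Zfp42 was at 58.48 and 66.55 CPM in 2iL 48 h and only 8.002 and 2.874 CPM in 2i 48 h.

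Replicates 1 and 2 of a group are called library 1 and library 2 below, in which order values are given. The libraries of 2iL 48 h differed more from each other than those of 2i 48 h. The log2 levels of the 2 libraries differed by a root mean square of 0.55 over genes in 2iL 48 h, against 0.286 in 2i 48 h. Genes with short transcripts were lower in library 1 and genes with long ones higher: the median replicate difference was -0.05 in the 1565 genes with the shortest transcripts and 0.19 in the 1564 with the longest, against -0.04 and 0.03 for the 2i 48 h replicates. Set against 2i 48 h, the median log2 difference of 2iL 48 h was 0.12 in the shortest and 0.07 in the longest genes with both libraries, and 0.15 and -0.02 with library 2 alone, so the trend with length against 2i 48 h was larger for library 2 alone than for both. Mitochondrially encoded genes took 0.433% and 0.785% of counts in 2iL 48 h and 0.5999% and 0.505% in 2i 48 h. The summed level of 24 ribosomal protein genes was in the same range in both groups, at 33380 and 39610 CPM in 2iL 48 h and 35760 and 38860 CPM in 2i 48 h. Results were repeated without each of the 4 libraries in turn, and for many genes and lists the values that moved are given beside them. Not every list that moved carries such values, so a count given without them need not be stable.

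In all, 1053 genes were higher and 1090 lower in 2iL 48 h than in 2i 48 h, of 11761 tested (edgeR quasi-likelihood test, adjusted p under 0.05). These are 8.95% and 9.27% of the tested genes and the background for the counts of list members from this test below. Counts of list members from other fits or hours are to be read beside the calls of that fit or hour over all genes. Those calls rise and fall with the fit too. The difference exceeded 2-fold for 547 of the higher and 854 of the lower genes, and the median log2 fold change of all tested genes was -0.03. Without 2iL 48 h library 1, 580 genes were higher and 618 lower (4.93% and 5.25%), and 522 and 552 of the original calls were among them. None of the 2143 called genes turned its sign without that library. The number of calls was lower without either 2i library too, at 535 higher and 632 lower without library 1 and 492 and 563 without library 2, and larger without 2iL 48 h library 2, at 1264 and 1374. A total of 316 higher and 350 lower genes were called whichever of the 4 libraries was left out. Scaling by RLE size factors moved the median of all genes by -0.12 and the calls to 752 higher and 1348 lower, so that 35.8% of calls were higher, against 49.1% with TMM. With the shallow library of the series (2iL 36 h replicate 2, 7298 counts) left out, RLE gave 1061 and 1100. DESeq2 called 325 higher and 557 lower genes. The levels of the 2 groups did not overlap for 55.9% of tested genes, so absence of overlap alone carries little weight.

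Several genes of the LIF pathway were still higher in cells that had lost LIF 48 h earlier than in cells kept without it. Of 11 tested members of the LIF receptor, JAK and STAT3 pathway 5 were higher in 2iL 48 h and 0 lower, with a median log2 fold change of 0.64 (4, 4, 3 and 3 higher without each library in turn). Socs3 (chromosome 11, 117966079 to 117970047, minus strand, build mm10), the feedback inhibitor of LIF signalling, had 3.78 and 10.7 CPM in 2iL 48 h and no count in either 2i 48 h library. It had 37 counts against 0 and was at least 8.28-fold higher (edgeR adjusted p = 9.0e-04). Bcl3, a nuclear partner of NF-kappa-B that STAT3 induces, was at 11.01 and 13.97 CPM in 2iL 48 h and 2.00 and 0.479 CPM in 2i 48 h. Its log2 fold change was 3.39 ± 0.57 (standard error, n = 2 libraries a group), with 4.52 without 2i 48 h library 1 and 2.59 without library 2.

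The promoters of Socs3 and Bcl3 are shown because these genes had the fewest counts in 2i 48 h among the higher members of the STAT3 target list with a RefSeq promoter window. The sequences are from RefSeq (GRCm38.p6, the assembly of mm10), from 250 bases before to 50 bases after the RefSeq gene start, at chr11:117969317-117969616 for Socs3 and chr7:19822706-19823005 for Bcl3, both on the minus strand. Capitals mark matches to TTCNNNGAA, the palindromic STAT motif, which reads the same on both strands.
Socs3: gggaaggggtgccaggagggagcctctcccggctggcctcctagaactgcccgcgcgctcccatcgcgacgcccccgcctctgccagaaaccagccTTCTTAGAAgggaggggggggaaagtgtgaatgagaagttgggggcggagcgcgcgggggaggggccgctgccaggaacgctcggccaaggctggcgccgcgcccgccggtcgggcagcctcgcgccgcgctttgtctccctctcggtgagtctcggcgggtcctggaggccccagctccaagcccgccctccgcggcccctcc
Bcl3: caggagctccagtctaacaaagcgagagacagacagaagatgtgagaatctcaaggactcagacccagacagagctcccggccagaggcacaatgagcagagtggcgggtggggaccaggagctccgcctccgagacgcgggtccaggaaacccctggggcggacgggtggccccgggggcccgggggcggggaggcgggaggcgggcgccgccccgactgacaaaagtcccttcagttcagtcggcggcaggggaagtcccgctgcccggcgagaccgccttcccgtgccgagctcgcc
The Socs3 window held 1 match, TTCTTAGAA, which begins 154 bases before the gene start, and the Bcl3 window none. The motif occurred in 9.09% of the windowed STAT3 targets (1 of 11 genes). It occurred in 8.83% of 838 genes that were higher in 2iL 48 h and in 6.51% of 830 that were lower. The share was 7.99% of 9183 tested genes with a window and 9.55% of all 27025 genes with a window. A gene was counted when any of its windows held a match, and 8.30% of all 32851 windows held one. A match in these letters is a description of the window and not a binding site.

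Of 15 tested LIF and STAT3 targets 9 were higher and 1 lower in 2iL 48 h, with a median of 1.14. The number higher was 6 without 2i 48 h library 1 and 7 without library 2. The lower member, Lefty1, is described with the Nodal pathway. Stat3 itself was at 31.3 and 56.7 CPM in 2iL 48 h and 10.7 and 8.14 CPM in 2i 48 h (2.23 ± 0.34, edgeR adjusted p = 1.1e-05). Lifr, the ligand-binding receptor chain, was at 100 and 64.9 CPM in 2iL 48 h and 16 and 14.4 CPM in 2i 48 h (2.45 ± 0.29). Both 2iL 48 h libraries were above both 2i 48 h libraries for each of these genes. The signalling chain below the receptor showed less: Il6st, the shared receptor subunit, had a log2 fold change of 0.64 and Jak1 of 0.01, and neither passed the test. A list of 10 genes that earlier work on these data had found most dependent on LIF before withdrawal kept 4 higher members at 48 h, Klf4, Bcl3, Crxos and Ahnak, and that list is not independent evidence of its direction. Ahnak, a large scaffold protein gene, was at 39.6 and 18.1 CPM in 2iL 48 h and 7.33 and 4.79 CPM in 2i 48 h (2.29 ± 0.39, and 1.61 without 2iL 48 h library 1).

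**Figure D1:**
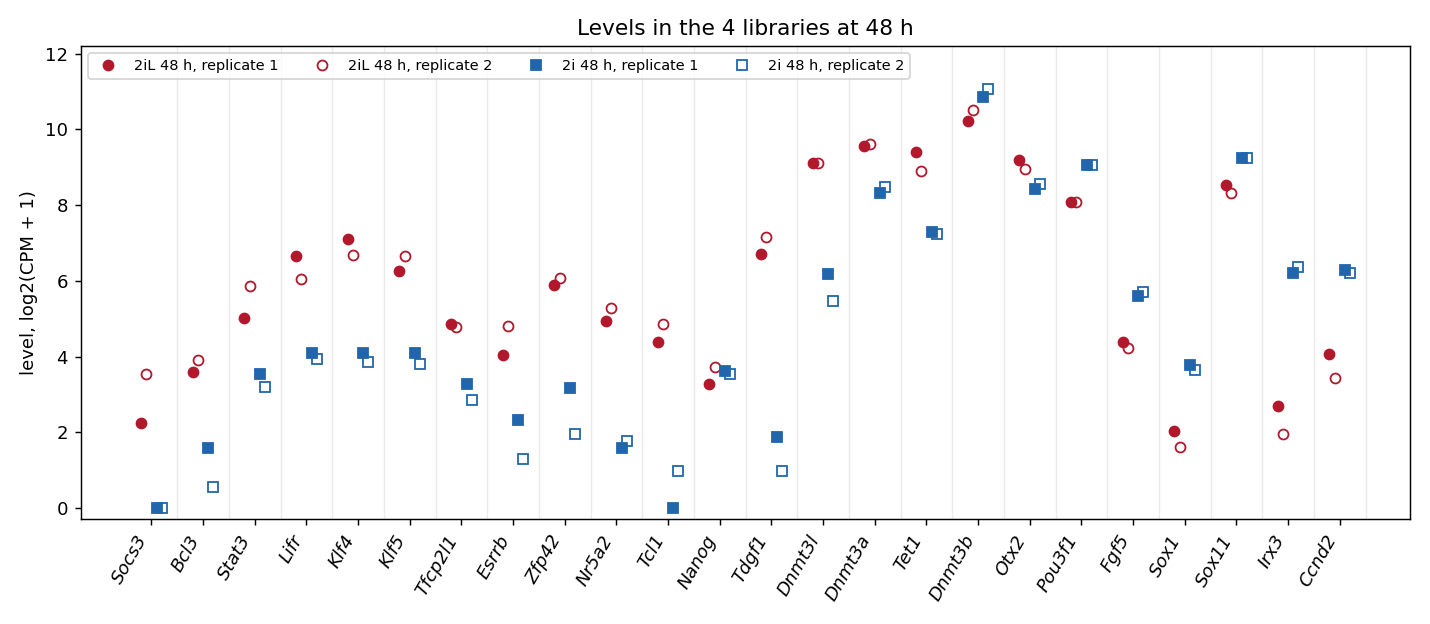
Levels of 24 genes in the 4 libraries at 48 h, on the log2(CPM + 1) scale; circles are 2iL 48 h and squares 2i 48 h, filled for replicate 1 and open for replicate 2. Genes of the LIF pathway and the naive network (left) sit higher in 2iL 48 h except Nanog, whose libraries overlap, and Pou3f1, Fgf5, Sox1, Sox11, Irx3 and Ccnd2 (right) sit lower.

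Much of the naive network was higher in 2iL 48 h. Of 23 tested naive genes 15 were higher and 1 lower, with a median log2 fold change of 1.94, and 13, 14, 13 and 11 were higher without each library in turn. Klf4 was at 136 and 101 CPM in 2iL 48 h and 16 and 13.4 CPM in 2i 48 h (3.02 ± 0.34, edgeR adjusted p = 6.3e-08). Klf5, its relative, was at 75.0 and 101 CPM against 16 and 12.9 CPM (2.61 ± 0.27). Tfcp2l1, the further factor below STAT3, was at 27.9 and 26.7 CPM in 2iL 48 h and 8.67 and 6.23 CPM in 2i 48 h (1.90 ± 0.34). For these 3 factors the 2iL 48 h libraries were each more than 3-fold above the higher 2i 48 h library.

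Naive factors outside the direct LIF targets differed by as much. Zfp42, the marker also known as Rex1, was at 58.5 and 66.5 CPM in 2iL 48 h and 8.002 and 2.874 CPM in 2i 48 h (3.60 ± 0.31). Its log2 fold change was 4.41 without 2i 48 h library 1 and 2.95 without library 2. Nr5a2, a nuclear receptor that keeps Pou5f1 transcribed, was at 29.9 and 38.2 CPM in 2iL 48 h and 2.00 and 2.40 CPM in 2i 48 h (3.89 ± 0.37, edgeR adjusted p = 2.4e-09). Esrrb, a nuclear receptor of the network and a target of GSK3 inhibition, was at 15.5 and 27.1 CPM against 4.001 and 1.437 CPM (3.03 ± 0.45, with 3.81 without 2i 48 h library 1 and 2.38 without library 2). Tcl1, a coactivator of the kinase AKT, had 126 counts in 2iL 48 h and 2 in 2i 48 h, a ratio of 42.3 with a 95% counting interval of 11.5 to 353.

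Other members of the naive list were enzymes and secreted proteins. Tdh, the threonine dehydrogenase of mouse stem cells, was at 214 and 343 CPM in 2iL 48 h and 92.0 and 97.2 CPM in 2i 48 h (1.55 ± 0.24). Fbxo15, an F-box gene used as a reporter of pluripotency, was at 161 and 261 CPM against 28.7 and 35.9 CPM (2.69 ± 0.26). Spp1, the secreted phosphoprotein osteopontin, was at 52.3 and 36.1 CPM against 6.002 and 3.353 CPM (3.29 ± 0.39). The network was not higher as a whole. Nanog was at 8.60 and 12.3 CPM in 2iL 48 h and 11.34 and 10.54 CPM in 2i 48 h (-0.07 ± 0.36, edgeR adjusted p = 0.92), and Klf2, a factor that MEK inhibition maintains, had a log2 fold change of 0.34 that did not pass. The lower member, Gli2 of the Hedgehog pathway (-1.45 ± 0.51), lost its call without any 1 of the 4 libraries (edgeR adjusted p 0.083 to 0.23) and with DESeq2.

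General pluripotency genes were higher in 2iL 48 h where they differed, with 7 of 14 tested members higher and 0 lower (median 0.91). Tdgf1, the coreceptor of Nodal also known as Cripto, had the largest difference among the genes that met the rule on level and stability given further on. It was at 103 and 141 CPM in 2iL 48 h and 2.67 and 0.958 CPM in 2i 48 h (6.12 ± 0.40, edgeR adjusted p = 2.3e-12), and at 6.89 without 2i 48 h library 1 and 5.48 without library 2. L1td1, an RNA-binding protein derived from a retrotransposon, was at 1557 and 1389 CPM in 2iL 48 h and 540 and 596 CPM in 2i 48 h (1.37 ± 0.22). Sox2 was at 452 and 437 CPM against 203 and 270 CPM (0.91 ± 0.19). Dppa4, a chromatin protein of early embryos, was at 972 and 712 CPM against 381 and 419 CPM (1.07 ± 0.21). Tdgf1 is also listed in the Nodal pathway, of which 1 of 14 tested genes was higher and 3 lower, with 1 lower without 2iL 48 h library 1 and without 2i 48 h library 2. Nodal, the ligand, did not pass (0.73), nor did its inhibitor Lefty2 (-0.20). The paralogous inhibitor Lefty1 was lower, at 1.03 and 2.46 CPM in 2iL 48 h and 10 and 5.75 CPM in 2i 48 h (-2.13 ± 0.60, edgeR adjusted p = 0.011). It was called by DESeq2 too, but not without 2iL 48 h library 1 (edgeR adjusted p = 0.14) or 2i 48 h library 1 (0.14), and lay at -2.80 without 2iL 48 h library 2.

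**Figure D2:**
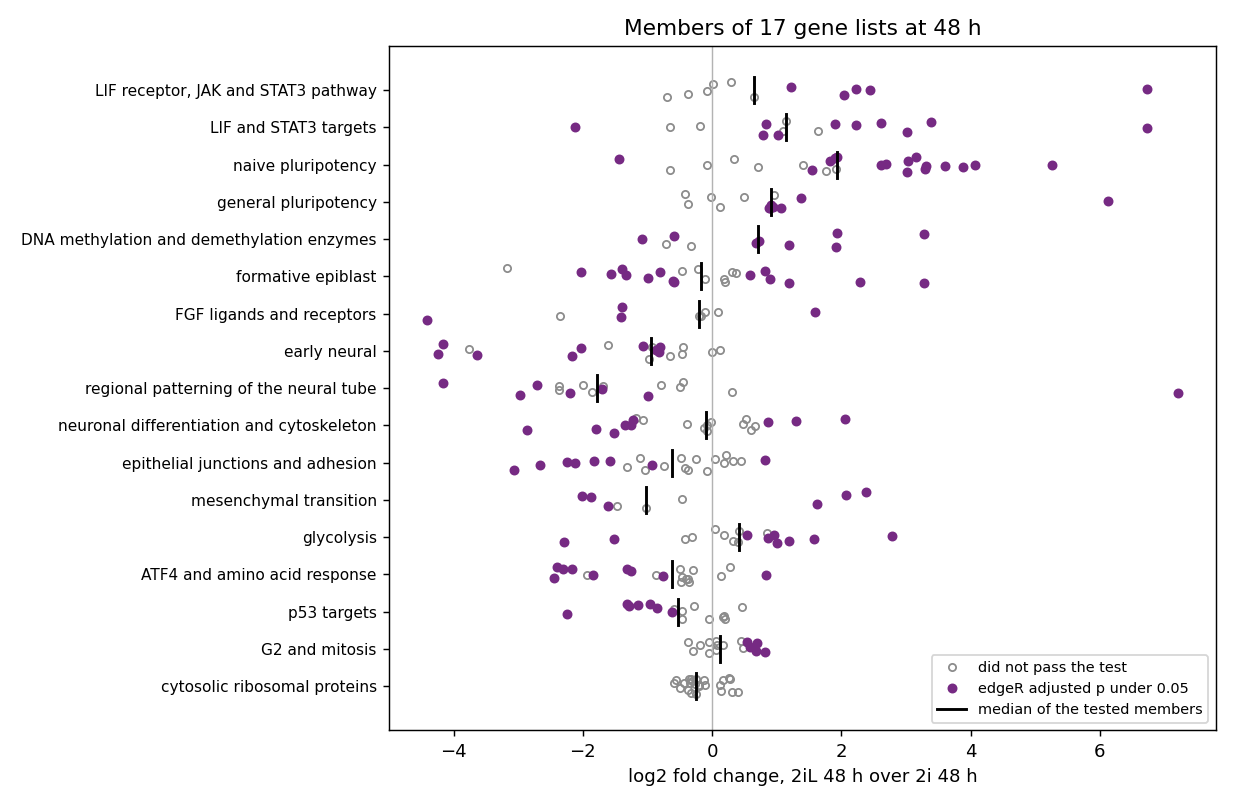
Log2 fold change of 2iL 48 h over 2i 48 h for each tested member of 17 gene lists, with members that passed the test filled and a bar at the list's median. The naive list has 15 of 23 members higher, the early neural list 9 of 18 lower, and the formative list has 6 higher and 8 lower of 22.

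The enzymes that write and erase DNA methylation were more often higher than lower in 2iL 48 h. Of 10 tested, 6 were higher and 2 lower in 2iL 48 h, with 4 and 0 without 2iL 48 h library 1, 4 and 1 without 2i 48 h library 1 and 5 and 0 without 2i 48 h library 2. Dnmt3l (chromosome 10, 78041947 to 78063622), the catalytically inactive cofactor of the de novo methyltransferases, was at 547 and 553 CPM in 2iL 48 h and 71.3 and 43.1 CPM in 2i 48 h (3.28 ± 0.25, edgeR adjusted p = 3.0e-11). Dnmt3a, a de novo methyltransferase, was at 758 and 782 CPM against 321 and 354 CPM (1.19 ± 0.19). Dnmt3b, the other, went the opposite way, at 1201 and 1458 CPM in 2iL 48 h and 1864 and 2136 CPM in 2i 48 h (-0.59 ± 0.19, edgeR adjusted p = 0.031). Dnmt3b did not pass without 2iL 48 h library 1 (edgeR adjusted p = 0.234), 2i 48 h library 1 (0.0707) and 2i 48 h library 2 (0.213). Tet1, which oxidises methylated cytosine, was at 674 and 474 CPM in 2iL 48 h and 155 and 149 CPM in 2i 48 h (1.92 ± 0.25). Tet2 was at 17.5 and 12.3 CPM against 2.67 and 4.79 CPM (1.94 ± 0.43). Tet3, the lower member besides Dnmt3b, had a log2 fold change of -1.08, a call that DESeq2 did not make.

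The formative list divided into members on either side. Of 22 tested, 6 were higher and 8 lower in 2iL 48 h, with a median of -0.17, and the counts were 4 and 5 without 2iL 48 h library 1, 5 and 6 without 2i 48 h library 1 and 4 and 4 without 2i 48 h library 2. Besides Dnmt3l and Dnmt3a, Tcf15, a basic helix-loop-helix factor of cells primed to leave the naive state, was higher, at 60.2 and 76.4 CPM in 2iL 48 h and 14 and 13.89 CPM in 2i 48 h (2.28 ± 0.30). Etv5, an ETS factor induced by FGF signalling, was at 280 and 226 CPM against 128 and 143 CPM (0.90 ± 0.19), a call that DESeq2 did not make. Lower were Pou3f1, the POU factor of the formative epiblast, at 268 and 269 CPM in 2iL 48 h and 530 and 534 CPM in 2i 48 h (-0.99 ± 0.18, edgeR adjusted p = 1.9e-04). Fgf5, a secreted growth factor of the postimplantation epiblast, was at 19.9 and 17.7 CPM against 47.4 and 51.2 CPM (-1.39 ± 0.27). Car14, a carbonic anhydrase, was at 17.5 and 15.6 CPM in 2iL 48 h and 43.4 and 54.1 CPM in 2i 48 h (-1.56 ± 0.26). For each of these genes the replicates of a group lay closer to each other than to the other group. Otx2 was at 582 and 495 CPM in 2iL 48 h and 341 and 378 CPM in 2i 48 h (0.58 ± 0.18), and it did not pass without 2iL 48 h library 1 (edgeR adjusted p = 0.156), 2i 48 h library 1 (0.159) and 2i 48 h library 2 (0.0651), with DESeq2, with RLE size factors and with the 48 h libraries fitted alone.

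Single genes of other signalling pathways were called too, beside a background of 8.95% of tested genes higher and 9.27% lower. The counts of the ERK, beta-catenin and Notch lists were small and close to that background. Among FGF ligands and receptors 1 of 9 was higher and 3 lower: Fgf4, the growth factor secreted by pluripotent cells, was at 126 and 92.4 CPM in 2iL 48 h and 32.01 and 39.76 CPM in 2i 48 h (1.59 ± 0.25). Fgfr1, the receptor of the epiblast, was at 40.9 and 33.7 CPM against 103 and 95.8 CPM (-1.41 ± 0.19). Of 14 ERK targets 2 were higher and 1 lower, the lower one not without 2iL 48 h library 1 or 2i 48 h library 1, and of 15 targets of beta-catenin and TCF 0 were higher and 2 lower. Neither lower beta-catenin target kept its call without 2iL 48 h library 1 or 2. In the BMP pathway 5 of 13 were lower and 0 higher, with 1 lower without 2iL 48 h library 1, 1 without 2i 48 h library 1 and 2 without 2i 48 h library 2. The member that kept its call was Bmp7, a BMP ligand, at 1.38 and 2.88 CPM in 2iL 48 h and 10 and 12.45 CPM in 2i 48 h (-2.42 ± 0.42). Of 17 Notch genes 1 was higher and 2 lower, and the call of the higher one, Rbpj, was lost without 2iL 48 h library 1 and without either 2i library. The lower count was 1 without either 2iL library and without 2i 48 h library 1. Hes1, a target of Notch, was at 2.41 and 8.63 CPM in 2iL 48 h and 22.01 and 20.6 CPM in 2i 48 h (-1.99 ± 0.41, and -1.29 without 2iL 48 h library 1 and -3.10 without library 2). Of 10 primitive streak genes 2 were lower, Wnt3 and Nkx1-2, with 1 and 2 counts in 2iL 48 h and 18 and 47 counts in 2i 48 h. The ratio of 2i 48 h to 2iL 48 h was 26.8 for Wnt3 (95% counting interval 4.23 to 1117) and 34.99 for Nkx1-2 (95% counting interval 9.16 to 297).

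The early neural genes that differed were all lower in 2iL 48 h. Of 18 tested early neural genes 9 were lower and 0 higher, with a median of -0.95, and 6 to 8 were lower when each library was left out in turn. Sox11 and Sox4, factors of neural progenitors, were at 368 and 319 CPM and 152 and 192 CPM in 2iL 48 h, against 606 and 605 CPM and 357 and 362 CPM in 2i 48 h (-0.82 ± 0.16 and -1.06 ± 0.17). Sox1, the earliest definitive neural factor, was at 3.10 and 2.05 CPM in 2iL 48 h and 12.7 and 11.5 CPM in 2i 48 h (-2.17 ± 0.42, edgeR adjusted p = 2.9e-04). Sox3, its relative, was at 18.9 and 58.7 CPM against 149 and 162 CPM (-2.03 ± 0.43, and -1.41 without 2iL 48 h library 1 and -3.04 without library 2). Fabp7, a fatty acid binding protein of radial glia, had 1 count in 2iL 48 h and 17 in 2i 48 h, a ratio of 2i 48 h to 2iL 48 h of 25.3 (95% counting interval 3.97 to 1058). In bulk RNA, fewer neural cells and less neural RNA per cell cannot be told apart.

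Genes that pattern the neural tube were also lower more often than higher, with 6 of 16 tested lower and 1 higher (median -1.78). Irx3 (chromosome 8, 91798525 to 91802067), an Iroquois homeobox factor, was at 5.504 and 2.88 CPM in 2iL 48 h and 73.3 and 81.9 CPM in 2i 48 h (-4.16 ± 0.32, edgeR adjusted p = 3.1e-11). Of the TALE homeobox cofactors, Pbx3 was at 18.6 and 16.8 CPM against 80.7 and 83.3 CPM (-2.21 ± 0.23) and Meis2 at 15.1 and 11.9 CPM against 58.7 and 31.6 CPM (-1.70 ± 0.26). En1, a homeobox gene of the midbrain, was the exception, with 53 counts in 2iL 48 h and 0 in 2i 48 h, and was at least 11.9-fold higher (edgeR adjusted p = 1.1e-04). Of 20 tested neuronal and cytoskeletal genes 3 were higher and 6 lower. Map2, a microtubule-associated protein of dendrites, was at 6.19 and 5.75 CPM in 2iL 48 h and 44.7 and 43.1 CPM in 2i 48 h (-2.86 ± 0.34), whereas the stathmin genes Stmn2, at 153 and 305 CPM against 52.7 and 57.0 CPM (2.06 ± 0.28), and Stmn1, at 168 and 121 CPM against 46.0 and 70.4 CPM (1.30 ± 0.24), were higher.

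Epithelial genes that differed were mostly lower, and the mesenchymal list split. Of 22 tested genes of epithelial junctions 7 were lower and 1 higher (median -0.61). The higher member was lost without 2iL 48 h library 1 and without 2i 48 h library 2, where 4 were lower. The claudin Cldn7 was at 5.504 and 4.11 CPM in 2iL 48 h and 38.7 and 43.1 CPM in 2i 48 h (-3.06 ± 0.32), and the desmosomal cadherin Dsg2 at 13.1 and 11.5 CPM against 36.0 and 51.2 CPM (-1.83 ± 0.26). Cdh1 and Epcam, the main adhesion molecules of the epiblast, had log2 fold changes of -0.49 and -0.42 and did not pass. Of 9 mesenchymal genes 3 were higher and 3 lower. Vim, the intermediate filament vimentin, was at 330 and 282 CPM in 2iL 48 h and 110 and 89.1 CPM in 2i 48 h (1.62 ± 0.20). Fn1, fibronectin, was at 276 and 225 CPM against 63.4 and 56.0 CPM (2.07 ± 0.22). Zeb1 and Zeb2, paralogous repressors of epithelial genes, differed in opposite directions: Zeb1 was at 27.9 and 12.3 CPM in 2iL 48 h and 2.67 and 4.79 CPM in 2i 48 h (2.37 ± 0.40, and 1.65 without 2iL 48 h library 1). Zeb2 was at 21.3 and 16.8 CPM against 67.3 and 73.8 CPM (-1.88 ± 0.36, not called by DESeq2). Among genes of the extracellular matrix 5 of 15 were higher and 3 lower, with Lamc1, a laminin chain, at 82.6 and 70.2 CPM against 24.7 and 19.6 CPM (1.80 ± 0.28); the counts were 3 and 2 without 2iL 48 h library 1 and without 2i 48 h library 2.

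Of 17 tested glycolytic genes 7 were higher and 2 lower in 2iL 48 h, against 3 higher and 3 lower with DESeq2. Pfkp, a phosphofructokinase, was at 145 and 72.7 CPM in 2iL 48 h and 13.3 and 17.7 CPM in 2i 48 h (2.79 ± 0.29, and 2.20 without 2iL 48 h library 1). Hk2, a hexokinase, was at 372 and 311 CPM against 185 and 170 CPM (0.95 ± 0.17). The glucose carriers were lower: Slc2a3 was at 20.98 and 17.66 CPM in 2iL 48 h and 103 and 87.2 CPM in 2i 48 h (-2.29 ± 0.25). Slc2a1 was at 77.0 and 122 CPM against 304 and 265 CPM (-1.52 ± 0.23). Of 20 tested genes of the ATF4 and amino acid response 8 were lower and 1 higher (median -0.62), and the higher one was lost without 2iL 48 h library 1 and without either 2i library. Ddit3, the stress factor CHOP, was at 28.6 and 14.8 CPM in 2iL 48 h and 123 and 108 CPM in 2i 48 h (-2.39 ± 0.27). Atf5, a relative of ATF4, was at 76.7 and 44.4 CPM against 156 and 135 CPM (-1.25 ± 0.25). Atf4 itself (0.14) and its target Asns, asparagine synthetase (-0.37), did not pass.

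Of 16 p53 targets 7 were lower and 0 higher (median -0.52), but 2 were lower without 2iL 48 h library 1, 4 without either 2i library and 9 without 2iL 48 h library 2. Ccng1, a cyclin that p53 induces, kept its call in all 4 of these fits, at 109 and 124 CPM in 2iL 48 h and 248 and 206 CPM in 2i 48 h (-0.96 ± 0.18). Of 16 genes of G2 and mitosis 5 were higher and 0 lower, but 0 were without 2iL 48 h library 1, 1 without 2i 48 h library 2 and 2 without 2i 48 h library 1. Of 16 genes of S phase entry 1 was higher and 0 lower, and it lost its call without 2iL 48 h library 1 and without either 2i library. Ccnd2, the cyclin D2 gene, was lower, at 15.8 and 9.86 CPM in 2iL 48 h and 76.7 and 72.3 CPM in 2i 48 h (-2.51 ± 0.23, edgeR adjusted p = 1.8e-09). Among Myc, LIN28 and let-7 genes 3 of 12 were lower and 0 higher (2 and 1 without 2iL 48 h library 1, 3 and 1 without its library 2), with Lin28b, a blocker of let-7 maturation, at 30.3 and 23.8 CPM against 86.0 and 78.6 CPM (-1.59 ± 0.19).

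Of 14 polycomb genes 5 were higher and 1 lower, led by Mtf2, an accessory subunit of PRC2, at 717 and 530 CPM in 2iL 48 h and 257 and 285 CPM in 2i 48 h (1.20 ± 0.23), and by Suz12, a core subunit, at 328 and 265 CPM against 141 and 136 CPM (1.10 ± 0.19). The counts were 3 and 0 without 2iL 48 h library 1, 4 and 2 without its library 2, 2 and 1 without 2i 48 h library 1 and 3 and 0 without 2i 48 h library 2. Of 11 germline genes silenced by DNA methylation 4 were higher and 4 lower: Rhox5, a homeobox gene of the X chromosome, was at 267 and 317 CPM in 2iL 48 h and 106 and 89.1 CPM in 2i 48 h (1.58 ± 0.22). Ddx4, the germ cell helicase Vasa, was at 5.16 and 7.80 CPM against 18.0 and 31.1 CPM (-1.96 ± 0.35). Without either 2i library 2 of these genes were higher and 2 lower. Of 17 imprinted genes 5 were lower and 0 higher, among them Grb10, an adaptor that restrains growth signalling, at 20.6 and 24.6 CPM against 104 and 85.7 CPM (-2.06 ± 0.22), and 2 were lower without 2i 48 h library 2.

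Markers of cell types that the cultures could also hold were low. The summed level of 12 primitive endoderm markers was 19.95 and 16.84 CPM in 2iL 48 h and 53.4 and 50.8 CPM in 2i 48 h, with 2 of 4 tested members lower, Dab2 and Col4a1, and Sox7 without a count in all 4 libraries. The log2 fold change of Dab2 was -2.70, with -2.09 without 2iL 48 h library 1 and -3.58 without library 2, and Col4a1 (-1.12) was not called by DESeq2. The summed levels of 8 definitive endoderm markers were 6.19 and 11.1 CPM against 16.7 and 19.2 CPM, those of 11 trophectoderm markers 25.1 and 41.5 CPM against 44.7 and 43.1 CPM, and those of 9 fibroblast markers 16.2 and 20.5 CPM against 18.01 and 22.03 CPM, with 0 of 5, 7 and 5 tested members called. Gm42418, which holds ribosomal RNA sequence, was at 180400 and 118800 CPM in 2iL 48 h and 109200 and 191200 CPM in 2i 48 h, and 0 of 5 tested genes of the RNA quality list were called. At an unadjusted p under 0.05 the numbers were 2 for definitive endoderm, 2 for trophectoderm, 0 for fibroblast and 0 for RNA quality genes, and DESeq2 called 0 of each list. Of 24 ribosomal protein genes 0 were called by edgeR or DESeq2, with 1 at an unadjusted p under 0.05 and 11 lower without 2iL 48 h library 2. Whether the primitive endoderm markers take part in any other result was not tested.

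The rule for the largest differences asked for a mean log2 CPM of at least 4, groups that do not overlap and a call that holds without 2iL 48 h library 1, which 332 higher and 257 lower genes met. After Tdgf1 and Zfp42, the higher genes were led by Trap1a, a tumour antigen of the X chromosome, at 445 and 299 CPM in 2iL 48 h and 30.7 and 32.1 CPM in 2i 48 h (3.56 ± 0.27). Dusp27, a gene of the dual-specificity phosphatase family, was at 189 and 135 CPM against 16.7 and 11.5 CPM (3.55 ± 0.30). Hsf2bp, a meiotic recombination factor, was at 243 and 230 CPM in 2iL 48 h and 28.01 and 37.36 CPM in 2i 48 h (2.84 ± 0.22). Others were Ddx58, the RNA sensor RIG-I (2.96 ± 0.38), the septin Sept1 (2.96 ± 0.29), the small heat shock gene Hspb1 (2.85 ± 0.34), the spectrin Sptbn4 (2.82 ± 0.33), Gtsf1l (2.82 ± 0.31) and the calcium channel Ryr3 (2.81 ± 0.34). Ddx58 was at 4.20 without 2i 48 h library 1 and 2.16 without library 2, and Ryr3 at 3.83 without 2i 48 h library 2. Ttn, the titin gene, differed between its 2iL 48 h libraries, at 217 and 70.7 CPM against 18.0 and 19.2 CPM in 2i 48 h (2.95 ± 0.43, and 1.92 without 2iL 48 h library 1).

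After Irx3, the lower genes were led by Prtg, the neural tube receptor protogenin, at 8.94 and 13.6 CPM in 2iL 48 h and 174 and 156 CPM in 2i 48 h (-3.88 ± 0.27). Fst, the activin antagonist follistatin, was at 6.19 and 3.70 CPM against 64.0 and 51.2 CPM (-3.49 ± 0.30). Kif1a, an axonal kinesin (-2.78 ± 0.34, and -3.45 without 2iL 48 h library 1), Ptn, the growth factor pleiotrophin (-2.72 ± 0.29), and Irs2, an insulin receptor substrate (-2.65 ± 0.34), followed. The transcription factor Ebf1 was at 7.91 and 7.39 CPM in 2iL 48 h and 48.7 and 46.9 CPM in 2i 48 h (-2.63 ± 0.29). Further genes were the ubiquitin ligase Dtx4 (-2.63 ± 0.27), Hdgfl3 (-2.57 ± 0.28), the palmitoyltransferase Zdhhc2 (-2.44 ± 0.32), the synaptotagmin Syt11 (-2.34 ± 0.33, and -3.19 without 2iL 48 h library 2) and Ddit4, an inhibitor of mTOR complex 1 (-2.31 ± 0.33, and -3.13 without 2iL 48 h library 2).

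**Figure D3:**
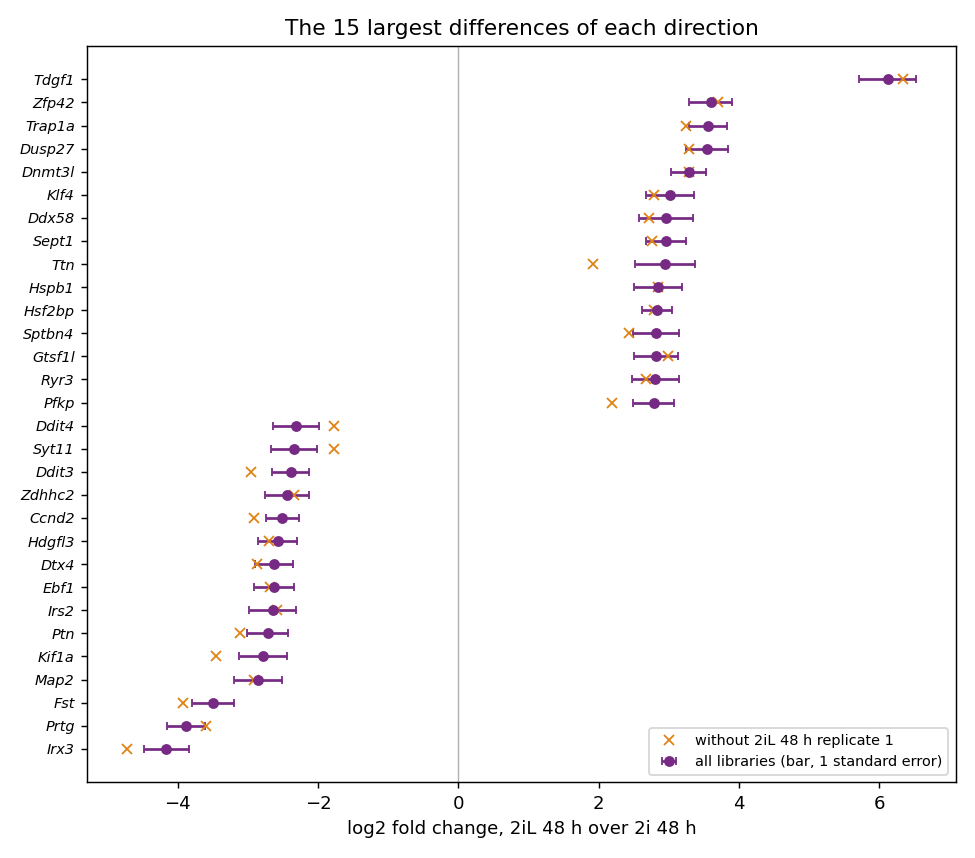
Log2 fold change of 2iL 48 h over 2i 48 h for the 15 largest differences of each direction that met the rule, with 1 standard error (bars, all libraries) and the value without 2iL 48 h library 1 (crosses). Without that library Ttn lies at 1.92, and all 30 genes have the same sign in both fits, which the rule required.

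Most genes called at 48 h had not been called before withdrawal. Before withdrawal 520 genes were higher and 474 lower in 2iL than in 2i (4.42% and 4.03% of tested genes), and 364 of these 994 were called at 48 h too, 36.6% of the calls at 0 h and 16.99% of those at 48 h. Of the 364, 258 had the same direction and 106 the opposite one, 56 of them higher in 2iL at 48 h. The gap itself, 2iL minus 2i, was tested at 48 h against 0 h over 8 libraries, 4 at each hour, and it was more positive at 48 h for 662 genes and more negative for 461 (5.63% and 3.92%). The balance depended on the scaling: RLE size factors gave 450 more positive and 619 more negative, RLE without the shallow library 668 and 482, and DESeq2 169 and 206. The gap at 48 h differed from that at 24 h for 895 genes (7.61%) and from that at 72 h for 655 (5.57%).

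The gene lists took different paths over these hours. Naive genes were higher in 2iL at 24 h for 19 of 23 members and at 72 h for 4, with 3 lower, against 11 at 0 h and 15 at 48 h. The gap of naive genes at 48 h was more positive for 8 and more negative for 2 members than at 0 h, for 1 and 5 than at 24 h, and for 6 and 1 than at 72 h. Formative genes were lower in 2iL for 12 of 22 members at 0 h and 12 at 24 h, with 1 higher at each, and higher for 16 at 72 h, with 3 lower. At 48 h the list thus stood between, and the gap to 0 h was positive for 13 members and negative for 1. General pluripotency genes were lower in 2iL for 5 of 14 members at 0 h and higher for 10 at 72 h, and their gap at 48 h was more positive than at 0 h for 8 and more negative for 0. Early neural genes were lower for 4, 3, 9 and 13 of 18 members at 0, 24, 48 and 72 h, and higher for 2, 2, 0 and 1. The test of the change did not follow these counts: their gap at 48 h was more positive for 4 and more negative for 4 members than at 0 h, for 0 and 2 than at 24 h, and for 2 and 2 than at 72 h. The background at 24 h was 5.74% of tested genes higher and 5.39% lower, and at 72 h 5.76% and 6.72%. The LIF-dependent list was higher for 10 of 10 members at 0 h and at 24 h, for 4 at 48 h and for 0 at 72 h, with 3 lower at 72 h. Its gap at 48 h was more negative than at 0 h for 6 members. That list had been chosen by its difference at 0 h in these data. Its count at 0 h and its fall from there are therefore not independent of that choice.

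**Figure D4:**
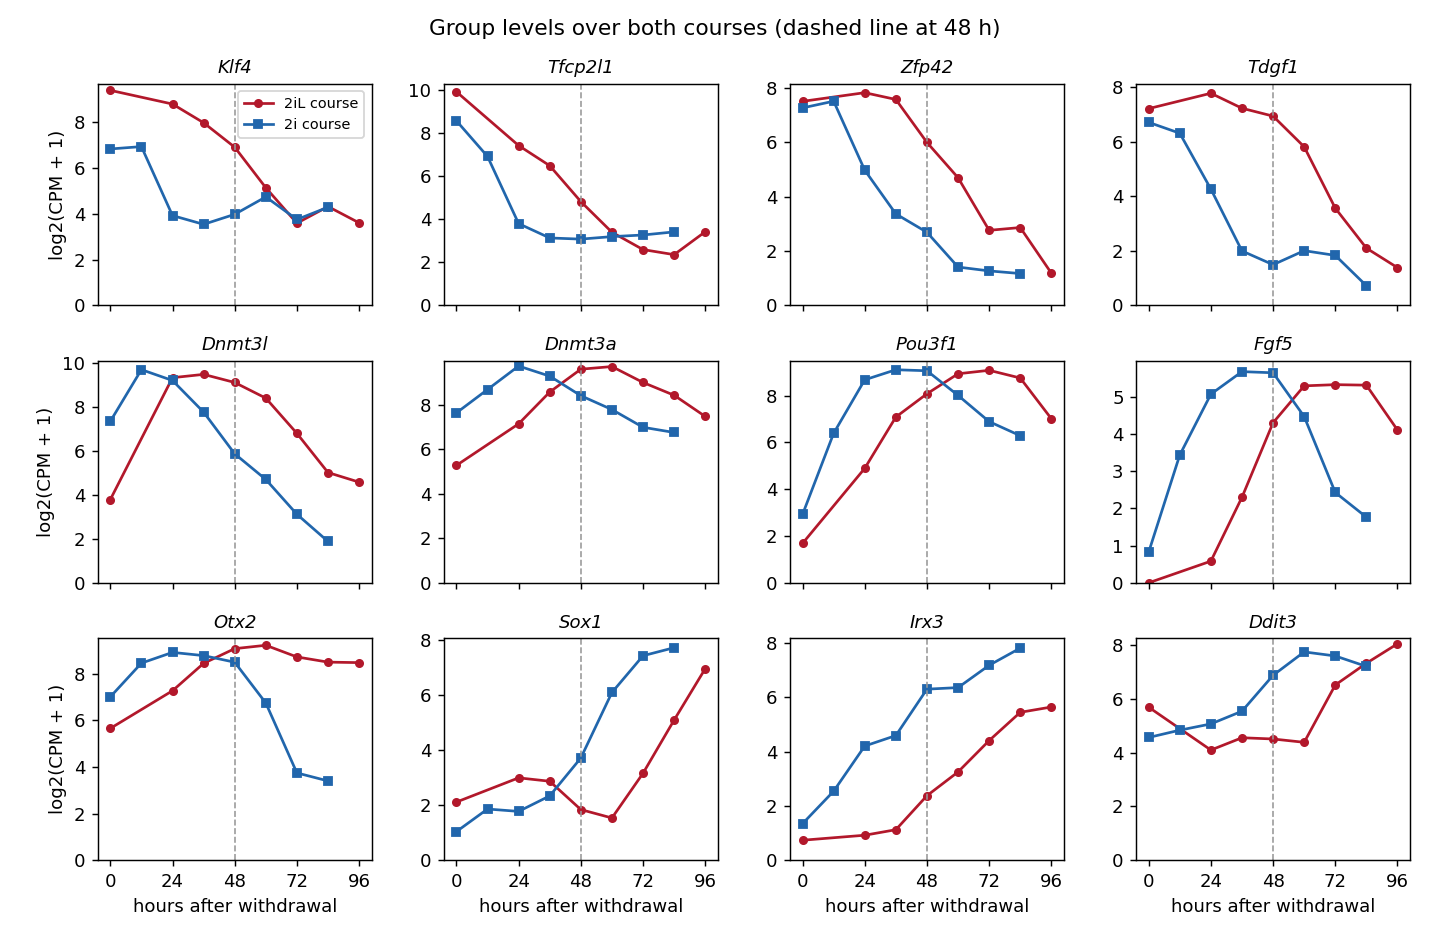
Group levels, log2(CPM + 1), of 12 genes over the 2iL course (circles, 0 to 96 h) and the 2i course (squares, 0 to 84 h), with 1 library at 36 h of 2iL and 2 at every other point. The curves of Dnmt3a and Otx2 cross between 36 and 48 h and those of Pou3f1 and Fgf5 between 48 and 60 h, while Zfp42 and Tdgf1 stand higher in 2iL and Irx3 stands higher in 2i there.

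Single genes followed these paths. Dnmt3l, whose gap changed with the smallest p among the genes that met the level rule, was at 12.8 CPM in 2iL against 161 CPM in 2i at 0 h (group means), and at 550 CPM in 2iL against 57.2 CPM in 2i at 48 h. Its gap at 48 h exceeded that at 0 h by 6.93 ± 0.38 (edgeR adjusted p = 1.1e-14) and that at 24 h by 3.16 (edgeR adjusted p = 4.9e-08). Pou3f1 was lower in 2iL at 24 h (log2 fold change -3.82), lower by less at 48 h (-0.99) and higher at 72 h (2.20), and both neighbouring gaps differed from that at 48 h (edgeR adjusted p = 5.2e-08 and 9.9e-10). Fgf5 had the same order, with -6.01, -1.39 and 3.10. Klf4, in contrast, had a gap of 2.56 at 0 h, 4.96 at 24 h, 3.02 at 48 h and -0.19 at 72 h, and the change of gap from 0 h to 48 h did not pass (0.46, edgeR adjusted p = 0.56). The gap at 48 h was below that at 24 h (-1.93, edgeR adjusted p = 0.012) and above that at 72 h (3.21, edgeR adjusted p = 5.7e-04). Ccnd2 had log2 fold changes of -2.52 at 0 h, -0.07 at 24 h, where it did not pass, and -2.51 at 48 h, and its change of gap from 0 h to 48 h did not pass (edgeR adjusted p = 0.995). Tdgf1 did not differ beyond the test at 0 h (0.50) and was higher in 2iL by 3.60 at 24 h and by 2.09 at 72 h.

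**Figure D5:**
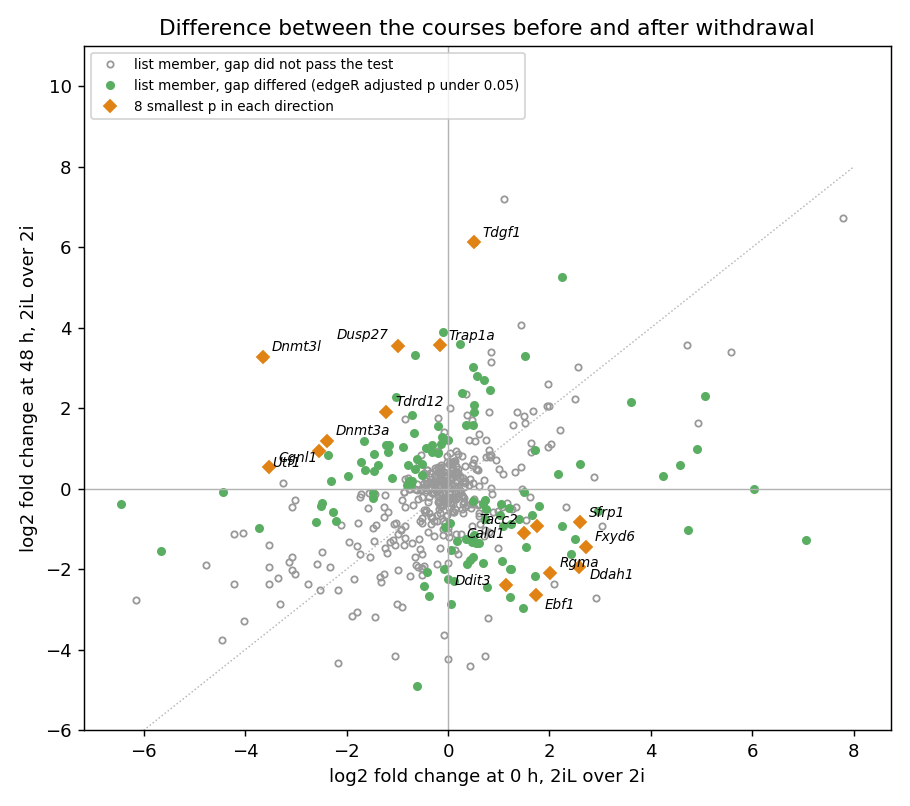
Log2 fold change of 2iL over 2i at 48 h (vertical) against that at 0 h (horizontal) for the tested list members, filled where the gap differed between the hours, and for the 16 genes with the smallest p (diamonds); the dotted line marks an equal gap. Dnmt3l lies at -3.65 and 3.28, and Ddah1 at 2.58 and -1.94.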

How the data were processed

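Read counts per gene were deposited by the authors as 1 file per library, without normalisation. Per the submitters' processing notes, bcl2fastq, STAR 2.6.0a and HTSeq were used with genome build mm10; the annotation release is not given in the sources used here. Gene names and coordinates come from GENCODE M21, promoters from RefSeq. The deposited counts of 31053 genes gave libraries of 1122648 to 3438514 counts, apart from 1 of 7298. Reads in no gene and reads ambiguous between genes were left out. In the 4 libraries at 48 h, reads in no gene were 29.25% to 37.68% of those in a gene, in no gene or ambiguous. CPM values were computed here from the deposited counts with TMM factors.

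All 32 libraries were fitted with 1 coefficient for each of 16 groups (edgeR 4.0.16 in R 4.3.3, quasi-likelihood test, 16 residual degrees of freedom, 11761 genes after the filter on low counts), with Benjamini-Hochberg adjustment over all genes tested and a threshold of 0.05. Standard errors were taken as the absolute log2 fold change divided by the root of the F statistic. Floors for a count of 0 (3 counts over a group) and 95% Clopper-Pearson intervals of a ratio cover counting error only. The code was checked on simulated counts. Alternatives were DESeq2 1.42.0, RLE size factors, no filter, the 48 h libraries alone, a replicate block, and libraries left out; RLE without the shallow library was added after seeing the data. The labels state no pairing of the groups by replicate number. The replicate differences of 2iL 48 h and 2i 48 h correlated at -0.0677 across genes, a value that cannot exclude a pairing.

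The text names members of 42 gene lists and, by rule, the 15 largest log2 fold changes of each direction with a call, a mean log2 CPM of at least 4, groups without overlap and the same call without 2iL 48 h replicate 1, plus the 8 smallest p of each direction for the change of the gap from 0 h. The comparison, lists and rule were chosen with earlier results of these data known. Counting by strand is not given in the sources used here, so overlapping genes cannot be told apart.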

Additional observations from a re-analysis of the deposited data

Results flagged for a closer look

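The difference between 2iL and 2i at 48 h was set against the same difference at other hours, and the test of the change itself passed for 1123 genes against 0 h, 895 against 24 h and 655 against 72 h. The 8 genes of each direction with the smallest p against 0 h are given with their change in log2 fold change (edgeR adjusted p at most 1.75e-07 for each).

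Of the 8 genes with a positive change, 7 had a lower group mean in 2iL than in 2i at 0 h and a higher one at 48 h. Tdgf1 was higher in 2iL at both hours, at 148 CPM in 2iL against 104 CPM in 2i at 0 h and at 122 CPM in 2iL against 1.81 CPM in 2i at 48 h. Dnmt3l changed by 6.93 and Dnmt3a by 3.58, with Dnmt3a at 770 CPM in 2iL against 337 CPM in 2i at 48 h and at 37.6 CPM in 2iL against 197 CPM in 2i at 0 h. Utf1, a chromatin factor of pluripotent cells, changed by 3.48, and Cgnl1, a paralogue of the junction protein cingulin, by 4.06. Cgnl1 did not differ beyond the test at 48 h itself (0.54, edgeR adjusted p = 0.079). Tdgf1 changed by 5.62, Dusp27 by 4.54, Trap1a by 3.72 and Tdrd12, a gene of the piRNA pathway, by 3.13. Trap1a stood at 262 CPM in 2iL against 292 CPM in 2i at 0 h and at 372 CPM in 2iL against 31.4 CPM in 2i at 48 h, so the 2i cells held less of it at 48 h than at the start.

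In the other direction, 2iL was above 2i at 0 h and below it at 48 h for each of 8 genes. Ddah1, an enzyme that degrades methylated arginine, changed by -4.52, at 43.2 CPM in 2iL against 7.39 CPM in 2i at 0 h and at 11.4 CPM in 2iL against 43.9 CPM in 2i at 48 h. Ebf1 changed by -4.35, Fxyd6, a regulator of the sodium pump, by -4.15, and Rgma, a guidance molecule and BMP coreceptor, by -4.10. Ddit3 changed by -3.53, Sfrp1, a secreted Wnt antagonist, by -3.43, Tacc2 by -2.69 and Cald1, caldesmon, by -2.60. The call of Sfrp1 at 48 h itself (-0.84, edgeR adjusted p = 0.045) was lost under 8 alternatives, among them DESeq2 and leaving out 2iL 48 h replicate 2 or either 2i library.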

How the results depend on the processing

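The number of genes that differed at 48 h (2143) was 882 with DESeq2 and 981 with the 48 h libraries fitted alone, and 1055 to 2638 when each 48 h library was left out in turn. The number whose gap changed was 375 with DESeq2 and 676 to 1715 with a library left out against 0 h (1123), 296 and 530 to 1285 against 24 h (895), and 235 and 418 to 1058 against 72 h (655). With the replicate block, the counts were 2116 at 48 h, 1113 against 0 h, 851 against 24 h and 647 against 72 h. The cause of these changes was not tested. Leaving out a library also leaves fewer samples, and a lone library is then assumed to vary like the other groups. Of 119 named genes, 107 of them called, 1 to 8 lost their call and 0 to 3 gained one in each alternative, and the signs that turned were those of genes without a call. The genes named for the largest differences had been chosen to keep their call without 2iL 48 h replicate 1. The tally of named genes therefore does not stand for all called genes. Of the named values near 0 without a call, some turned sign. With each library left out in turn, Nanog was -0.34 to 0.18, Atf4 -0.15 to 0.37, Asns -0.72 to 0.0397, Klf2 -0.0801 to 0.68, Lefty2 -0.68 to 0.21 and Jak1 -0.52 to 0.38. With the libraries that stand apart left out across the series, Nanog was 0.17, Atf4 -0.16, Lefty2 0.20 and Jak1 -0.52. Jak1 was -0.12 with DESeq2, -0.11 with RLE, -0.0042 with RLE without the shallow library and -0.0493 with the 48 h libraries alone. Scaled by library total alone, without TMM factors, 3 counts were 0.872 and 1.17 CPM in the 2iL 48 h libraries. In the 2i 48 h libraries they were 2.14 and 1.36 CPM. A gene without a count could lie as high as these levels, which are not on the TMM scale used elsewhere here. Differences below them were not detectable at this depth.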

Other observations

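Of 17 nuclear genes of the respiratory chain 1 was higher in 2iL 48 h and 0 lower; the higher one, Ndufv1, lost its call with DESeq2 and without 2iL 48 h replicate 1, and 2 others were lower without 2iL 48 h replicate 2. Of 11 mitochondrially encoded genes 0 were called by edgeR or DESeq2, with 1 at an unadjusted p under 0.05. Without 2iL 48 h replicate 1, 2 of them were higher, without the libraries that stand apart across the series 3 were higher, and without 2iL 48 h replicate 2, 1 was lower. Of 19 genes of cholesterol synthesis 2 were lower, Hmgcs1 and Sc5d, and 0 higher. The call of Hmgcs1 was lost without 2iL 48 h replicate 1 and without either 2i library, and that of Sc5d without 2i 48 h replicate 2. At 24 h, 11 of the list had been lower, and the gap was more positive at 48 h than at 24 h for 6. Of 16 G1 cyclins and inhibitors 1 was higher and 3 lower, with 2 higher and 1 lower without 2iL 48 h replicate 1, and 0 higher without 2iL 48 h replicate 2 or 2i 48 h replicate 1. Of 13 immediate early genes 1 was higher and 3 lower, with a median log2 fold change of -1.69, and 1 was lower without 2iL 48 h replicate 1. Of 12 listed markers of 2-cell-like cells 11 were found among the counted genes, and none of these passed the filter on low counts. Their summed levels were 2.75 and 4.11 CPM in 2iL 48 h and 4.67 and 1.44 CPM in 2i 48 h.

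The 2iL 48 h levels were also set beside each hour of the 2i course over 6259 genes, as a description without a test, since every value shares the 2iL 48 h libraries. The root mean square of the log2 difference was 0.682 at 0 h of 2i, 0.525 at 12 h, 0.404 at 24 h, 0.476 at 36 h, 0.602 at 48 h, 0.739 at 60 h, 0.932 at 72 h and 1.01 at 84 h. The number of genes over 2-fold apart was 155 at 24 h of 2i and 464 at 48 h of 2i. Without 2iL 48 h replicate 1 these were 113 and 456, and the root mean square was 0.352 at 24 h and 0.582 at 48 h. The hour of the 2i course with the smallest value was thus 24 h both with and without that library.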
